A study of Mus musculus with 9 samples.

Results

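Expression of 10 genes of iron uptake, storage, export and sensing was followed in mouse kidney cortex by RNA sequencing, out of 17963 genes in the deposited table. The members were chosen by name and matched by their Entrez gene numbers: the uptake genes Tfrc, Slc11a2 and Tfr2, the storage genes Fth1, Ftl1 and Ncoa4, the export genes Slc40a1, Cp and Heph, and the sensor gene Ireb2. All 10 were in the table and passed the filter on low counts. Samples were taken on day 4 from wild-type mice in 3 groups of 3 libraries each. The cisplatin+YSJZD group was injected with cisplatin into the peritoneum and given YSJZD, the herbal Yishen Jiangzhuo decoction, by stomach tube. The cisplatin group was injected with cisplatin, a platinum-based chemotherapy drug known for its toxicity to tubule cells, and given water by stomach tube. The control group was injected with saline and given water in the same way. The labels state neither strain, sex, age nor dose, and nothing says whether separate animals gave the samples of a group. The p-values therefore rest on sample-to-sample spread, which may in part be technical.

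Iron circulates bound to transferrin, is taken into cells by transferrin receptors, leaves the endosome through the metal transporter DMT1, and is either used, stored in ferritin or exported by ferroportin. Iron regulatory proteins bind hairpins called iron-responsive elements when iron in the cytosol is low. Binding in the leader of a message blocks its translation, as in ferritin, and binding in the tail of the transferrin receptor message protects it from decay. The kidney reabsorbs filtered transferrin and other iron carriers in the proximal tubule, so uptake, storage and export genes are all active there.

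The hairpin letters were looked for in the members because they set which messages iron can act on directly. The motif searched on the sense strand was C, then 5 bases, then the loop CAGTGN, then 5 bases that pair with the 5 before the loop, G-T pairs allowed. With all 5 pairs formed it was found in protein-coding transcripts of 4 of the 10 members (Fth1, Ftl1, Slc40a1 and Tfrc), against 294 of 21877 genes of GENCODE M21 (1.34%). With 4 or 5 pairs it was found in 6 of the 10, Slc11a2 and Heph being added, against 10.7% of genes. The members were chosen as iron genes, among them known carriers of the element, so an excess over all genes was in part fixed in advance. The match in Heph lay in coding sequence and is not shown. The others are printed from the GENCODE M21 transcripts (GRCm38), 5′ to 3′, with the loop in capitals:
Fth1, 5′ UTR, chr19:9982732-9982761, plus strand: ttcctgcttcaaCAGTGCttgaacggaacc
Ftl1, 5′ UTR, chr7:45459778-45459807, minus strand: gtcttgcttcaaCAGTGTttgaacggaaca
Slc40a1, 5′ UTR, chr1:45925464-45925493, minus strand: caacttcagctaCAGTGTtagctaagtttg
Tfrc, 3′ UTR, chr16:32631219-32631248, plus strand: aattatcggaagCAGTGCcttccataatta
Tfrc, 3′ UTR, chr16:32631598-32631627, plus strand: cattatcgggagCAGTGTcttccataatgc
Tfrc, 3′ UTR, chr16:32631663-32631692, plus strand: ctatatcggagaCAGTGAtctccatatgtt
Tfrc, 3′ UTR, chr16:32631710-32631739, plus strand: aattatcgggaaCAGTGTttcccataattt
Slc11a2, 3′ UTR, chr15:100395152-100395181, minus strand, 4 of 5 pairs: agccatcagagcCAGTGTgtttctatggtt

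Both ferritin genes carry the same stem letters around the loop in the leader, and ferroportin has its hairpin there too. In Tfrc 4 matches lie in the tail of the message. A letter match is a description of the sequence and no measurement of binding.

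Library totals lay between 15029286 and 16690482 expected counts, and 13954 genes were tested. Levels of a single gene are given in CPM, counts relative to the library total scaled by TMM factors, with the SD over 3 libraries. Levels compared between genes are given in FPKM, the deposited values per length, summed over the transcripts of a gene. A gene was called at an adjusted p under 0.05 in edgeR's quasi-likelihood test with Benjamini-Hochberg adjustment over all tested genes. Cisplatin replicate 3 stood apart from the other libraries on the third principal component of log2 CPM, at 48.8 against 5.6 or less. Markers of the proximal tubule summed to 23100 to 44000 CPM in cisplatin+YSJZD libraries, 10200 to 11000 CPM in cisplatin libraries and 78800 to 102000 CPM in control libraries, with none of 15 at 0 in any group. Macrophage markers summed to 422 to 766, 1200 to 2730 and 121 to 175 CPM in the same order of groups, with none of 13 at 0. Most of each sum with cisplatin+YSJZD came from 1 gene, Cd14, at 264 to 606 CPM, against 10.6 to 13.4 CPM in control. With cisplatin Cd14 was at 442 to 2020 CPM, highest in replicate 3. Of the 13 markers 3 were called higher and 0 lower in cisplatin+YSJZD against control.

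Of the 10 members 4 were called in cisplatin against control, Fth1 and Cp higher and Tfrc and Slc11a2 lower. Across all tested genes 54.6% were called there, 28.6% higher and 26.0% lower, so that the members' share is no larger than the background. In cisplatin+YSJZD against cisplatin 4 were called, Tfr2, Slc11a2 and Ncoa4 higher and Cp lower, against 35.4% of all genes (17.4% higher, 18.0% lower). This count was 2 without cisplatin replicate 3 or without cisplatin+YSJZD replicate 2. In cisplatin+YSJZD against control 3 were called, Tfr2 and Cp higher and Tfrc lower, against 19.3% of all genes (9.93% higher, 9.37% lower). Every pair of these comparisons shares 3 libraries. Side by side, the log2 fold changes in cisplatin against control and in cisplatin+YSJZD against cisplatin were of opposite sign for Slc11a2 (-1.47 and 1.13) and Cp (4.51 and -1.44), while Tfrc (-2.23 and 0.23) and Fth1 (1.07 and -0.24) had second values that did not pass.

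**Figure D1:**
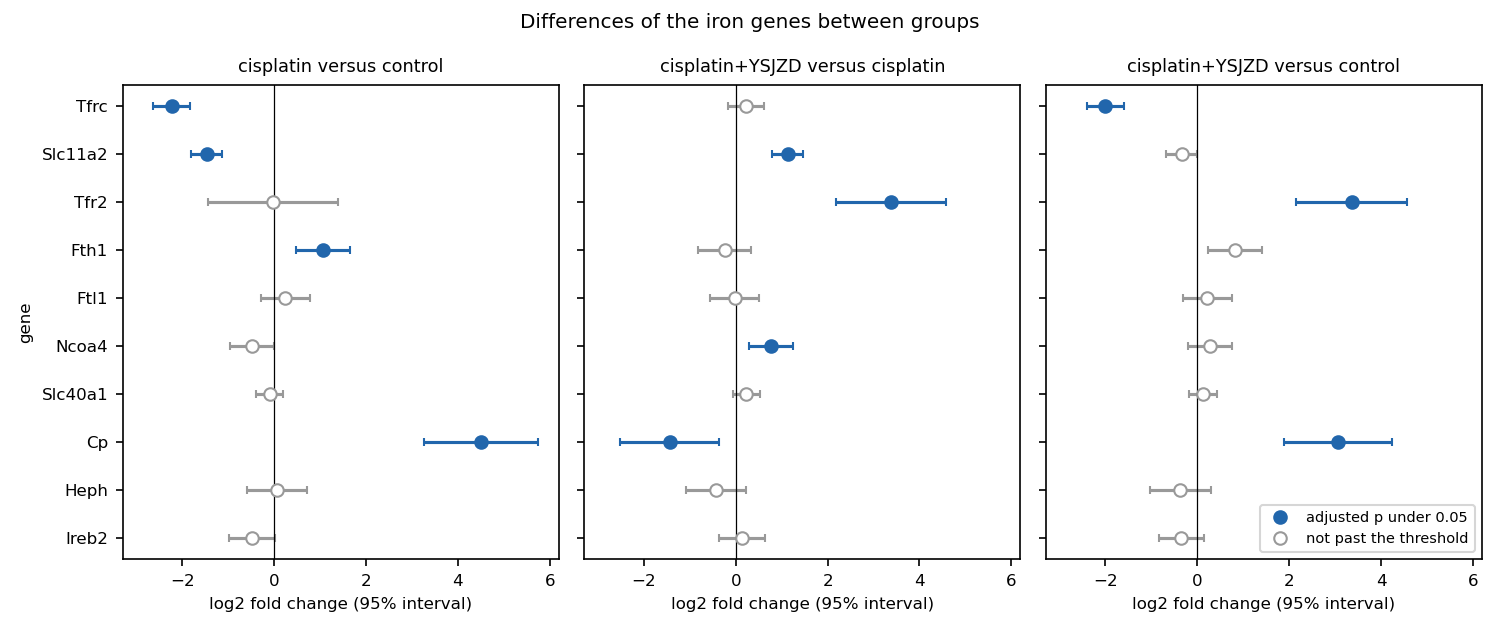
Log2 fold changes of the 10 iron genes in the 3 comparisons, with 95% intervals of the edgeR fit; filled points passed at an adjusted p under 0.05 over all genes. Tfrc lies near -2 in both comparisons with control and near 0 between the cisplatin-injected groups, and Tfr2 lies above 3 in both comparisons of the decoction group.

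The uptake genes moved in 3 different ways. Tfrc (Entrez gene 22042), which encodes the transferrin receptor that brings iron-loaded transferrin into most cells, was 4.70-fold lower with cisplatin than in control and stayed low with the decoction. Slc11a2 (Entrez gene 18174), which encodes the iron transporter DMT1, was 2.77-fold lower with cisplatin than in control, and 2.19-fold higher with the decoction than with cisplatin alone. Tfr2 (Entrez gene 50765), a transferrin receptor that serves as an iron sensor in liver and erythroid cells, was scarcely detected in cisplatin and control libraries and was 10.4-fold higher with the decoction than with cisplatin alone.

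Tfrc had 27.6, 45.0 and 37.8 CPM in the cisplatin+YSJZD libraries, 34.6, 28.2 and 31.2 CPM in the cisplatin libraries, and 141, 143 and 158 CPM in the control libraries. Every library of both cisplatin-injected groups lay far below every control library, and those groups overlapped each other. On the log2 scale the fold change was -2.23 ± 0.18 (SE) in cisplatin against control (edgeR adjusted p = 7.56e-06) and -2.00 ± 0.18 in cisplatin+YSJZD against control (edgeR adjusted p = 0.000108). Between cisplatin+YSJZD and cisplatin the difference was 0.23 ± 0.17 (edgeR adjusted p = 0.334), with a 95% interval of -0.16 to 0.62. Tfrc is also a gene of red cell precursors, and erythroid markers summed to 13.8 to 23.0 CPM with cisplatin+YSJZD, 3.10 to 3.91 CPM with cisplatin and 289 to 665 CPM in control. Of 8 such markers 3 passed the filter, of which 3 were called lower in cisplatin and 2 in cisplatin+YSJZD against control. Hba-a2 and Hbb-bt were at 0 in both cisplatin-injected groups. In control Hba-a2 was itself only at 0.146 to 0.218 CPM, and Hbb-bt was at 26, 7.65 and 0 CPM. Most of each sum with cisplatin+YSJZD came from Slc4a1, at 11.8 to 21.2 CPM, against 1.49 to 2.17 CPM with cisplatin and 27.4 to 73.9 CPM in control. Epb42 was at 0.89 to 1.25 CPM with cisplatin+YSJZD and 0.217 to 0.372 CPM with cisplatin. The globin gene Hba-a1 was no higher with cisplatin+YSJZD (0.642 to 1.12 CPM) than with cisplatin (0.913 to 1.25 CPM), against 200 to 589 CPM in control. The higher marker sum with cisplatin+YSJZD than with cisplatin was thus mainly that of Slc4a1 and was not shared by this globin gene. In a whole tissue, fewer cells of a type and less RNA per cell cannot be told apart, and the part of these cells or of the tubule in the Tfrc values was not tested.

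Slc11a2 had 121, 144 and 115 CPM in the cisplatin+YSJZD libraries, 56.8, 49.6 and 67.5 CPM in the cisplatin libraries, and 176, 147 and 160 CPM in the control libraries. The cisplatin libraries were the lowest and overlapped neither other group, and the highest decoction library lay just under the lowest control library. The log2 fold change was -1.47 ± 0.15 in cisplatin against control (edgeR adjusted p = 3.39e-05) and 1.13 ± 0.15 in cisplatin+YSJZD against cisplatin (edgeR adjusted p = 0.000584). Against control the decoction group differed by -0.34 ± 0.15 (edgeR adjusted p = 0.145), with an interval of -0.68 to -0.01 before adjustment. The proximal tubule markers above moved in the same directions, with 13 of 15 called lower in cisplatin against control and 14 of 15 called higher in cisplatin+YSJZD against cisplatin, and their part in the Slc11a2 values was not tested.

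Slc11a2 messages differ in their tails, and the deposited table splits the gene into 8 RefSeq transcripts. NM_001146161.1, the transcript with the hairpin printed above, held 76.1%, 84.3% and 69.6% of the gene's counts in cisplatin+YSJZD libraries, 63.1%, 62.6% and 78.8% in cisplatin libraries, and 77.2%, 73.6% and 77.7% in control libraries. It was the main form in every library, and the groups overlapped in its share. NM_008732.2, in whose tail no match was found, held at most 12% with cisplatin+YSJZD, 24.1% with cisplatin and 13.3% in control, and was at 0.0% in cisplatin+YSJZD replicate 2 and cisplatin replicate 3. These shares are estimates by the authors' counting program, which divides reads between similar transcripts.

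Tfr2 had 1.69, 3.02 and 3.44 CPM in the cisplatin+YSJZD libraries, 0.109, 0.228 and 0.434 CPM in the cisplatin libraries, and 0.364, 0.146 and 0.265 CPM in the control libraries. All decoction libraries lay above all others, while cisplatin and control libraries were mixed. The counts behind these values were low, at 29, 46 and 58 with cisplatin+YSJZD, 2, 4 and 7 with cisplatin, and 5, 2 and 4 in control. Tfr2 passed the filter on low counts through the decoction libraries alone, so a difference was built into its being tested, and with no filter the adjusted p-values of edgeR were 0.00124 against cisplatin and 0.0026 against control. Its log2 fold change was 3.39 ± 0.54 in cisplatin+YSJZD against cisplatin (edgeR adjusted p = 0.00127) and 3.36 ± 0.55 in cisplatin+YSJZD against control (edgeR adjusted p = 0.00269). Set against control, cisplatin gave -0.03 ± 0.63 (edgeR adjusted p = 0.972), and the 95% interval of -1.44 to 1.38 is wide at this depth. The Tfr2 reads of the decoction libraries were assigned to different transcripts in each, the leading form being XM_006504591.3 with 80.8% in replicate 1, XM_011240947.2 with 54.2% in replicate 2 and XM_006504593.3 with 78.5% in replicate 3.

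**Figure D2:**
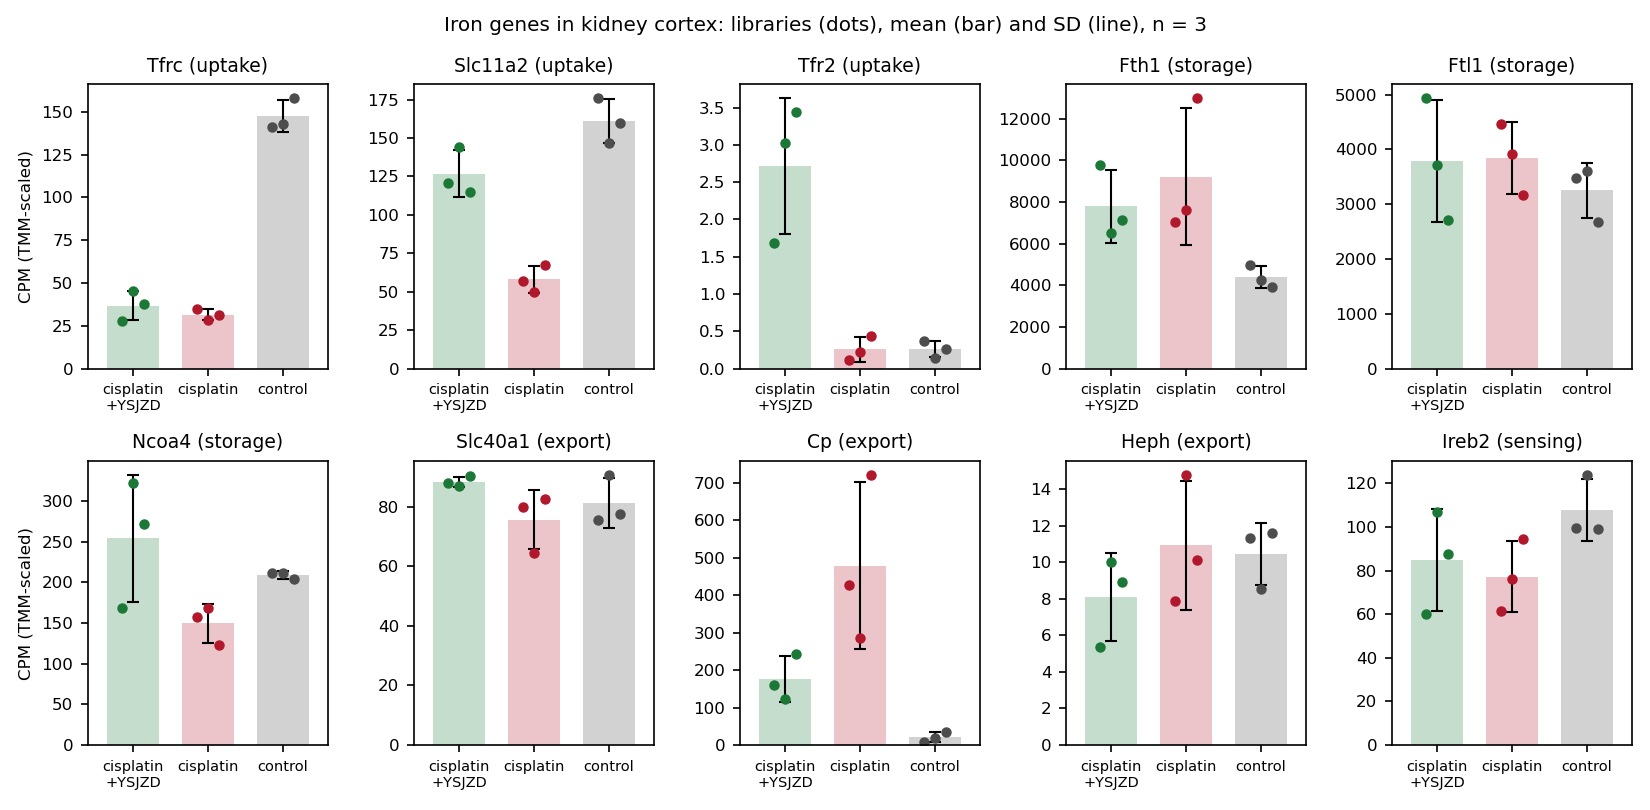
TMM-scaled CPM of the 10 iron genes (linear axis from 0, each gene on its own scale) in the cisplatin+YSJZD, cisplatin and control groups; dots are libraries, bars the mean and lines the SD of 3 libraries. Tfrc was low in both cisplatin-injected groups (36.8 and 31.3 CPM against 147 in control), Slc11a2 was low in cisplatin libraries alone, and Tfr2 was high in decoction libraries alone.

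Among the storage genes, ferritin heavy chain rose with cisplatin and the light chain did not pass the test. Fth1 (Entrez gene 14319), which encodes the ferritin subunit that oxidises iron for storage, was 2.10-fold higher with cisplatin than in control. Ftl1 (Entrez gene 14325), the subunit that helps the iron core form, passed the test in none of the 3 comparisons. Ncoa4 (Entrez gene 27057), the receptor that carries ferritin to the lysosome so that its iron is released, was 1.70-fold higher with the decoction than with cisplatin alone.

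Fth1 had 9760, 6490 and 7120 CPM in the cisplatin+YSJZD libraries, 7060, 7600 and 13000 CPM in the cisplatin libraries, and 4970, 4270 and 3920 CPM in the control libraries. Both cisplatin-injected groups lay wholly above control, they overlapped each other, and the highest value was that of cisplatin replicate 3. The log2 fold change was 1.07 ± 0.27 in cisplatin against control (edgeR adjusted p = 0.00647), and it was 0.74 without cisplatin replicate 3 and still called. Set against control, cisplatin+YSJZD gave 0.83 ± 0.27 and just missed the threshold (edgeR adjusted p = 0.0535), which it passed in DESeq2 (adjusted p = 0.0114), in limma-voom (adjusted p = 0.0438) and with libraries scaled by their totals (edgeR adjusted p = 0.0121). Between cisplatin+YSJZD and cisplatin the difference was -0.24 ± 0.26 (edgeR adjusted p = 0.504), with an interval of -0.83 to 0.34, and its sign turned to 0.08 without cisplatin replicate 3.

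Ftl1 had 4940, 3710 and 2720 CPM in the cisplatin+YSJZD libraries, 4460, 3910 and 3160 CPM in the cisplatin libraries, and 3480, 3600 and 2680 CPM in the control libraries. All groups overlapped. Set against control, cisplatin gave a log2 fold change of 0.24 ± 0.24 (edgeR adjusted p = 0.417), with an interval of -0.29 to 0.77, and in cisplatin+YSJZD against control 0.22 ± 0.24 (edgeR adjusted p = 0.567), with an interval of -0.31 to 0.75. Fth1 and Ftl1 each had 1 transcript in the table. Ferritin genes have many processed copies in the mouse genome, and reads shared with such copies could make both levels less certain than their errors say. The expected counts of Fth1 were whole numbers in every library and those of Ftl1 were not. The part of such copies was not tested.

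Ncoa4 had 168, 322 and 272 CPM in the cisplatin+YSJZD libraries, 157, 169 and 123 CPM in the cisplatin libraries, and 212, 212 and 204 CPM in the control libraries. The lowest decoction library fell within the range of the cisplatin libraries, and the control libraries lay close together above them. The log2 fold change in cisplatin+YSJZD against cisplatin was 0.76 ± 0.22 (edgeR adjusted p = 0.0217). That call was lost without cisplatin+YSJZD replicate 2 (0.56, adjusted p = 0.0836), cisplatin+YSJZD replicate 3 (0.72, adjusted p = 0.0658) or cisplatin replicate 3 (0.64, adjusted p = 0.0679), or with the 6 libraries fitted alone (0.77, adjusted p = 0.0525), each by edgeR. In cisplatin against control the value was -0.49 ± 0.22 (edgeR adjusted p = 0.0839), and it was called with the 6 libraries fitted alone (-0.48, edgeR adjusted p = 0.0227) and without cisplatin+YSJZD replicate 1 (-0.49, edgeR adjusted p = 0.0165), a library that enters mainly through the shared estimate of the spread.

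Of the export genes, Cp was the one with the widest range of all members. Cp (Entrez gene 12870), which encodes the copper enzyme ceruloplasmin that oxidises iron as it leaves cells and is also an acute-phase protein, was 22.8-fold higher with cisplatin than in control. With the decoction it was 2.72-fold lower than with cisplatin alone and still 8.36-fold higher than in control. Slc40a1 (Entrez gene 53945), the only known iron exporter ferroportin, and Heph (Entrez gene 15203), the membrane-bound relative of ceruloplasmin, passed the test in no comparison.

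Cp had 159, 124 and 244 CPM in the cisplatin+YSJZD libraries, 427, 286 and 722 CPM in the cisplatin libraries, and 7.86, 19.8 and 35.2 CPM in the control libraries. No groups overlapped. Its log2 fold change was 4.51 ± 0.56 in cisplatin against control (edgeR adjusted p = 9.61e-05) and 3.06 ± 0.53 in cisplatin+YSJZD against control (edgeR adjusted p = 0.00341), and without control replicate 3 these were 5.11 and 3.66. Set against cisplatin, cisplatin+YSJZD gave -1.44 ± 0.49 (edgeR adjusted p = 0.0424). This last call was fragile, since it was lost without cisplatin replicate 1 (-1.52, edgeR adjusted p = 0.067), cisplatin replicate 3 (-1.02, edgeR adjusted p = 0.134), cisplatin+YSJZD replicate 1 (-1.38, edgeR adjusted p = 0.104), cisplatin+YSJZD replicate 2 (-1.24, edgeR adjusted p = 0.134) or control replicate 2 (-1.44, edgeR adjusted p = 0.0603).

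The liver is the main source of plasma ceruloplasmin. The 6 hepatocyte markers summed to 5.69 to 10.1 CPM with cisplatin+YSJZD, 4.62 to 42.8 CPM with cisplatin and 3.50 to 9.10 CPM in control, and the highest sum was that of cisplatin replicate 3. Most of each sum in both cisplatin-injected groups came from Fgb, an acute-phase fibrinogen gene, at 4.57 to 8.33 CPM with cisplatin+YSJZD, 3.08 to 42 CPM with cisplatin and 0 in control. Alb was at 0.415 to 1.44 CPM with cisplatin+YSJZD, 0.109 to 0.285 CPM with cisplatin and 2.40 to 6.77 CPM in control, and Ahsg was at 0 in control. Macrophages also make ceruloplasmin, and their markers, given above, moved in the same directions, with 10 of 13 called higher in cisplatin against control and 9 of 13 called lower in cisplatin+YSJZD against cisplatin. In cisplatin+YSJZD against control 3 of the 13 were called higher. The part of either cell type in the Cp values was not tested. Cp was split over 5 transcripts, of which XM_017319446.1 held 57.8% to 64.8% of counts with cisplatin+YSJZD, 55.8% to 70.1% with cisplatin and 20.9% to 45.3% in control. Both cisplatin-injected groups lay above control in this share. NM_001276250.1 held 4.9% to 12.8%, 2.4% to 7.5% and 21.3% to 36.9% of counts in the same order of groups, so its share was highest in control.

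Slc40a1 had 87.8, 86.9 and 90.3 CPM in the cisplatin+YSJZD libraries, 80.0, 64.3 and 82.6 CPM in the cisplatin libraries, and 75.5, 90.8 and 77.4 CPM in the control libraries. The decoction libraries lay above the cisplatin libraries, and control overlapped both. The log2 fold change was -0.10 ± 0.13 in cisplatin against control (edgeR adjusted p = 0.538), with an interval of -0.40 to 0.19, and 0.22 ± 0.13 in cisplatin+YSJZD against cisplatin (edgeR adjusted p = 0.217), with an interval of -0.07 to 0.52. Set against control, cisplatin+YSJZD gave 0.12 ± 0.13 (edgeR adjusted p = 0.574). A change of 2-fold in Slc40a1 lies outside these intervals. The sign of the first value turned to 0.12 with libraries scaled by their totals.

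Heph had 5.37, 10 and 8.90 CPM in the cisplatin+YSJZD libraries, 7.87, 14.8 and 10.1 CPM in the cisplatin libraries, and 11.3, 8.52 and 11.6 CPM in the control libraries. All groups overlapped. Its log2 fold changes were 0.06 ± 0.29 in cisplatin against control, -0.43 ± 0.30 in cisplatin+YSJZD against cisplatin and -0.37 ± 0.30 in cisplatin+YSJZD against control, and none passed (edgeR adjusted p = 0.879, 0.285 and 0.43).

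Ireb2 (Entrez gene 64602) encodes iron regulatory protein IRP2, which binds the hairpins and is itself broken down when iron is plentiful. It had 60.2, 107 and 87.5 CPM in the cisplatin+YSJZD libraries, 61.5, 75.9 and 94.3 CPM in the cisplatin libraries, and 99.7, 124 and 99.1 CPM in the control libraries. The cisplatin libraries lay below control and the decoction libraries overlapped both. The log2 fold change was -0.48 ± 0.22 in cisplatin against control (edgeR adjusted p = 0.0917), 0.14 ± 0.22 in cisplatin+YSJZD against cisplatin (edgeR adjusted p = 0.666) and -0.35 ± 0.22 in cisplatin+YSJZD against control (edgeR adjusted p = 0.319). In cisplatin against control it was called without cisplatin replicate 3 (-0.65, edgeR adjusted p = 0.0458) and without cisplatin+YSJZD replicate 1 (-0.48, edgeR adjusted p = 0.0443).

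Levels per length differed widely between the members. In control libraries Fth1 averaged 5052 ± 316 FPKM (SD, n = 3) and Ftl1 3615 ± 434 FPKM, followed by Ncoa4 (58.1 ± 2.51 FPKM), Slc11a2 (37.5 ± 2.38 FPKM), Tfrc (28.2 ± 3.34 FPKM), Slc40a1 (22.9 ± 2.87 FPKM), Ireb2 (17.8 ± 2.67 FPKM), Cp (4.67 ± 3.37 FPKM), Heph (2.13 ± 0.371 FPKM) and Tfr2 (0.083 ± 0.031 FPKM). Among neighbours in that order, Tfrc and Slc40a1, Slc40a1 and Ireb2, and Cp and Heph overlapped between libraries. With cisplatin Cp took place 3, at 132 ± 54.9 FPKM, and Tfrc place 8, at 7.03 ± 0.904 FPKM, below Slc40a1 (24.9 ± 2.86 FPKM), Slc11a2 (16.5 ± 0.929 FPKM) and Ireb2 (15.1 ± 2.50 FPKM), of which Slc11a2 and Ireb2 overlapped. With cisplatin+YSJZD Cp took place 4, at 47.4 ± 18.3 FPKM, and overlapped Ncoa4 (80.0 ± 24.2 FPKM) above and Slc11a2 (34.3 ± 2.46 FPKM) below it, and Tfrc was again in place 8, at 8.0 ± 1.86 FPKM. Tfr2 (0.967 ± 0.337 FPKM) was last there too and overlapped Heph (1.88 ± 0.567 FPKM).

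**Figure D3:**
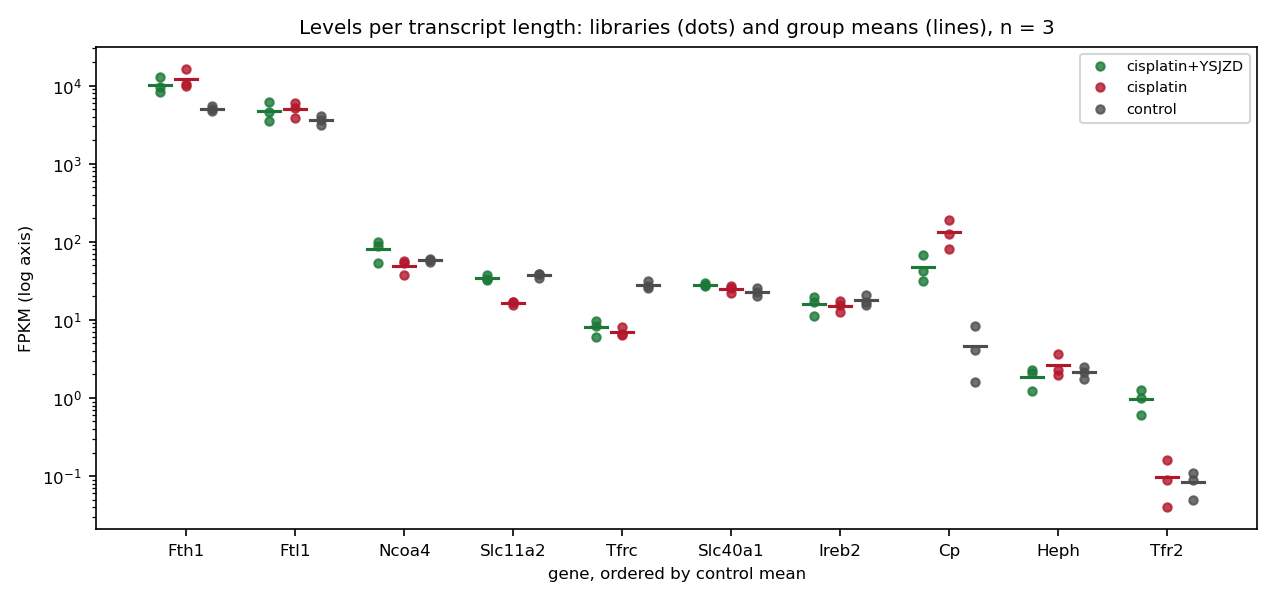
FPKM of the 10 iron genes on a log axis, ordered by the control mean, for the cisplatin+YSJZD, cisplatin and control groups; dots are libraries and lines are group means (n = 3). The ferritin genes stand far above the rest in all groups, and Cp crosses most other members, with 47.4, 132 and 4.67 FPKM in that order of groups.

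Ratios within a library show the balance of paired roles and do not depend on library scaling. Fth1 per Ftl1 was 2.05, 1.81 and 2.71 in the cisplatin+YSJZD libraries, 1.64, 2.01 and 4.25 in the cisplatin libraries, and 1.48, 1.23 and 1.52 in the control libraries, from FPKM. The heavy chain exceeded the light chain in every library, both cisplatin-injected groups lay above control, and cisplatin replicate 3 stood out. Tfrc per 1000 Fth1 was 0.467, 1.15 and 0.881 with cisplatin+YSJZD, 0.810, 0.618 and 0.400 with cisplatin, and 4.69, 5.52 and 6.65 in control. Receptor message was thus several times scarcer relative to ferritin message in all 6 cisplatin-injected libraries than in any control library. Cp per Heph was 34.8, 13.9 and 32.0 with cisplatin+YSJZD, 63.7, 22.4 and 84.5 with cisplatin, and 0.745, 2.36 and 3.34 in control. These ratios are descriptions, with no test.

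**Figure D4:**
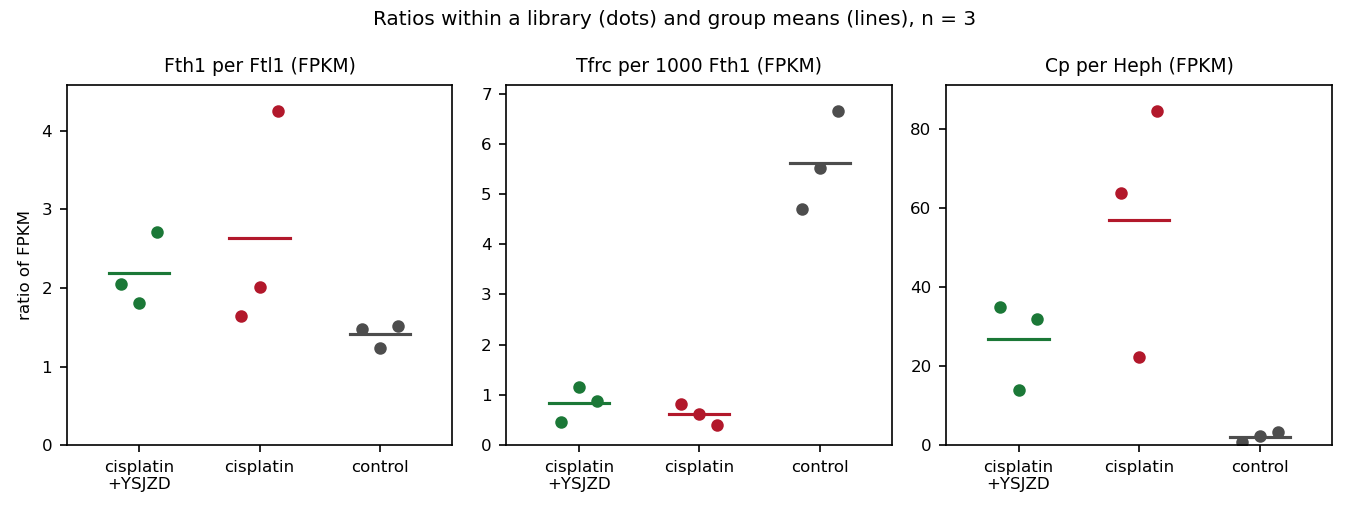
Ratios of FPKM within each library for Fth1 per Ftl1, Tfrc per 1000 Fth1 and Cp per Heph (linear axes from 0) in the cisplatin+YSJZD, cisplatin and control groups; dots are libraries and lines are group means. Tfrc per 1000 Fth1 averaged 0.832 with cisplatin+YSJZD, 0.609 with cisplatin and 5.62 in control, with no overlap between control and the other groups.

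The rest of the pathway was described with 6 lists of other iron genes, of which 75 were tested in all. In cisplatin against control 20 were called higher and 30 lower, with a median log2 fold change of -0.27 against 0.043 over all tested genes, of which 28.6% were called higher and 26.0% lower. In cisplatin+YSJZD against cisplatin 21 were called higher and 11 lower, with a median of 0.12 against -0.006 over all tested genes, of which 17.4% were called higher and 18.0% lower. In cisplatin+YSJZD against control 11 were called higher and 16 lower, with a median of -0.06 against 0.01 over all tested genes, of which 9.93% were called higher and 9.37% lower. Counts of a single list stand beside the same shares, and nothing particular to a list is read from them.

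Among 12 carriers of iron and haem, 7 rose and 3 fell in cisplatin against control (54.6% of all tested genes called), and 3 rose and 5 fell in cisplatin+YSJZD against cisplatin (35.4% of all called). Trf, which encodes transferrin itself, averaged 16.8 ± 4.64 CPM with cisplatin+YSJZD, 85.5 ± 41.1 CPM with cisplatin and 8.73 ± 2.38 CPM in control. It was called higher in cisplatin against control (3.29 ± 0.38, edgeR adjusted p = 5.78e-05) and lower in cisplatin+YSJZD against cisplatin (-2.35 ± 0.36, edgeR adjusted p = 0.00101). Lcn2, whose product NGAL binds bacterial iron carriers, averaged 390 ± 202 CPM with cisplatin+YSJZD, 2210 ± 1340 CPM with cisplatin and 3.29 ± 2.07 CPM in control. Its log2 fold change in cisplatin against control was 9.38 ± 0.75, and it was 10 without control replicate 3 and 8.79 without cisplatin replicate 3. Neutrophils carry NGAL too, and their 12 markers summed to 4.09 to 9.40 CPM with cisplatin+YSJZD, 29 to 102 CPM with cisplatin and 1.72 to 2.26 CPM in control, with Elane and Mpo at 0 with cisplatin, and Camp and Elane at 0 in control. Their part in the Lcn2 values was not tested. Lrp2 and Cubn, which encode the receptors megalin and cubilin that retrieve filtered transferrin, fell in cisplatin against control (-3.59 ± 0.29 and -3.20 ± 0.20) and rose in cisplatin+YSJZD against cisplatin (2.21 ± 0.28 and 2.40 ± 0.20). The proximal tubule markers moved in the same directions as this pair, and their part in it was not tested.

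Among 10 ferrireductases and other metal transporters, 5 rose and 4 fell in cisplatin against control (54.6% of all tested genes called). The ferrireductase gene Cybrd1 was at low levels, averaging 1.2 ± 0.789 CPM with cisplatin+YSJZD, 8.95 ± 1.97 CPM with cisplatin and 0.521 ± 0.107 CPM in control. These rest on 60, 465 and 22 counts over the libraries of each group. Cybrd1 rose in cisplatin against control (4.09 ± 0.48, edgeR adjusted p = 6.58e-05) and fell in cisplatin+YSJZD against cisplatin (-2.89 ± 0.43, edgeR adjusted p = 0.000933). That fall was -3.57 without cisplatin+YSJZD replicate 1. Slc39a14, which encodes ZIP14, a carrier of iron not bound to transferrin, averaged 115 ± 7.75 CPM with cisplatin+YSJZD, 270 ± 123 CPM with cisplatin and 117 ± 24.0 CPM in control. It rose in cisplatin against control (1.20 ± 0.28, edgeR adjusted p = 0.00408) and fell in cisplatin+YSJZD against cisplatin (-1.23 ± 0.28, edgeR adjusted p = 0.00714), while its relative Slc39a8 fell in cisplatin against control (-1.84 ± 0.22, edgeR adjusted p = 6.78e-05). Steap3, the reductase of the transferrin endosome, averaged 11.1 ± 0.237 CPM with cisplatin+YSJZD, 12.9 ± 3.73 CPM with cisplatin and 22.2 ± 1.19 CPM in control. Like Tfrc, it was called lower in both groups against control (-0.78 ± 0.21 in cisplatin and -1.01 ± 0.21 in cisplatin+YSJZD), though in cisplatin not with libraries scaled by their totals (-0.54, edgeR adjusted p = 0.0755).

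Among 10 genes of iron sensing, chaperones and ferritin turnover, 1 rose and 3 fell in cisplatin against control (54.6% of all tested genes called). Aco1, which encodes the regulatory protein IRP1, averaged 369 ± 26.3 CPM with cisplatin+YSJZD, 199 ± 3.14 CPM with cisplatin and 521 ± 20.3 CPM in control. It fell in cisplatin against control (-1.39 ± 0.12, edgeR adjusted p = 1.06e-05) and rose in cisplatin+YSJZD against cisplatin (0.89 ± 0.12, edgeR adjusted p = 0.00053). Fbxl5, which targets IRP2 for breakdown, did not pass in any comparison (0.16 ± 0.14, -0.28 ± 0.14 and -0.12 ± 0.14 in cisplatin against control, cisplatin+YSJZD against cisplatin and cisplatin+YSJZD against control). With libraries scaled by their totals it was called higher in cisplatin against control (0.4, edgeR adjusted p = 0.0215).

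Among 10 tested genes of the hepcidin axis, 3 rose and 1 fell in cisplatin against control (54.6% of all tested genes called). Bmp6, the growth factor that turns on hepcidin when iron is high, averaged 182 ± 52.1 CPM with cisplatin+YSJZD, 214 ± 34.5 CPM with cisplatin and 43.8 ± 9.29 CPM in control. It was called higher in both groups against control (2.29 ± 0.24 in cisplatin, edgeR adjusted p = 3.39e-05, and 2.05 ± 0.24 in cisplatin+YSJZD, edgeR adjusted p = 0.000452). Hfe, a partner of the transferrin receptors, rose in both as well (2.13 ± 0.23 and 1.4 ± 0.23). Hamp, the hepcidin gene, had 1 count in all with cisplatin+YSJZD, 3 with cisplatin and 1 in control, and was removed by the filter.

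Of 18 genes of haem turnover and transport, 2 rose and 10 fell in cisplatin against control (54.6% of all tested genes called), and 8 rose and 0 fell in cisplatin+YSJZD against cisplatin by edgeR (35.4% of all called). Hmox1, the haem oxygenase that frees iron from haem, averaged 196 ± 66.4 CPM with cisplatin+YSJZD, 233 ± 85.1 CPM with cisplatin and 65.7 ± 5.42 CPM in control. Hmox1 was called higher against control in cisplatin (1.83 ± 0.30, edgeR adjusted p = 0.000541) and in cisplatin+YSJZD (1.57 ± 0.30, edgeR adjusted p = 0.00538). It did not pass in cisplatin+YSJZD against cisplatin (-0.25 ± 0.29, edgeR adjusted p = 0.524). Uros and Cpox, enzymes of haem synthesis, fell in cisplatin against control (-3.3 ± 0.23 and -1.88 ± 0.13) and rose in cisplatin+YSJZD against cisplatin (2.04 ± 0.22 and 0.85 ± 0.13). Slc46a1, a carrier of haem and folate, did the same (-2.03 ± 0.15 and 1.28 ± 0.15). Alas2, the haem synthesis enzyme of red cell precursors, had 5 counts with cisplatin+YSJZD, 1 with cisplatin and 370 in control, and the erythroid markers, summed above, were likewise highest in control. In cisplatin+YSJZD against cisplatin the number called on this list was 5 without cisplatin replicate 2 and 5 without cisplatin+YSJZD replicate 2. The proximal tubule markers moved in the same directions as most of its calls (13 of 15 lower, then 14 of 15 higher), and the part of tubule and erythroid cells in these values was not tested.

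Of 15 genes of mitochondrial iron and iron-sulphur clusters, 2 rose and 9 fell in cisplatin against control (54.6% of all tested genes called), and 6 rose and 1 fell in cisplatin+YSJZD against cisplatin (35.4% of all called). Nfs1, the enzyme that supplies sulphur for the clusters, averaged 102 ± 11.2 CPM with cisplatin+YSJZD, 58.5 ± 2.72 CPM with cisplatin and 163 ± 12.3 CPM in control. It fell in cisplatin against control (-1.48 ± 0.13) and rose in cisplatin+YSJZD against cisplatin (0.80 ± 0.13). The mitochondrial transporter gene Abcb10 showed -1.44 ± 0.13 and 0.85 ± 0.13 in the same comparisons, each passing in edgeR. Slc25a37 and Slc25a28 went the other way and were called higher in cisplatin against control (1.05 ± 0.17 and 0.77 ± 0.15). In cisplatin+YSJZD against cisplatin Slc25a37 was called lower (-0.73 ± 0.17), while Slc25a28 did not pass (-0.35 ± 0.15). The proximal tubule markers moved in the same directions as most calls of this list, and their part in its values was not tested.

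**Figure D5:**
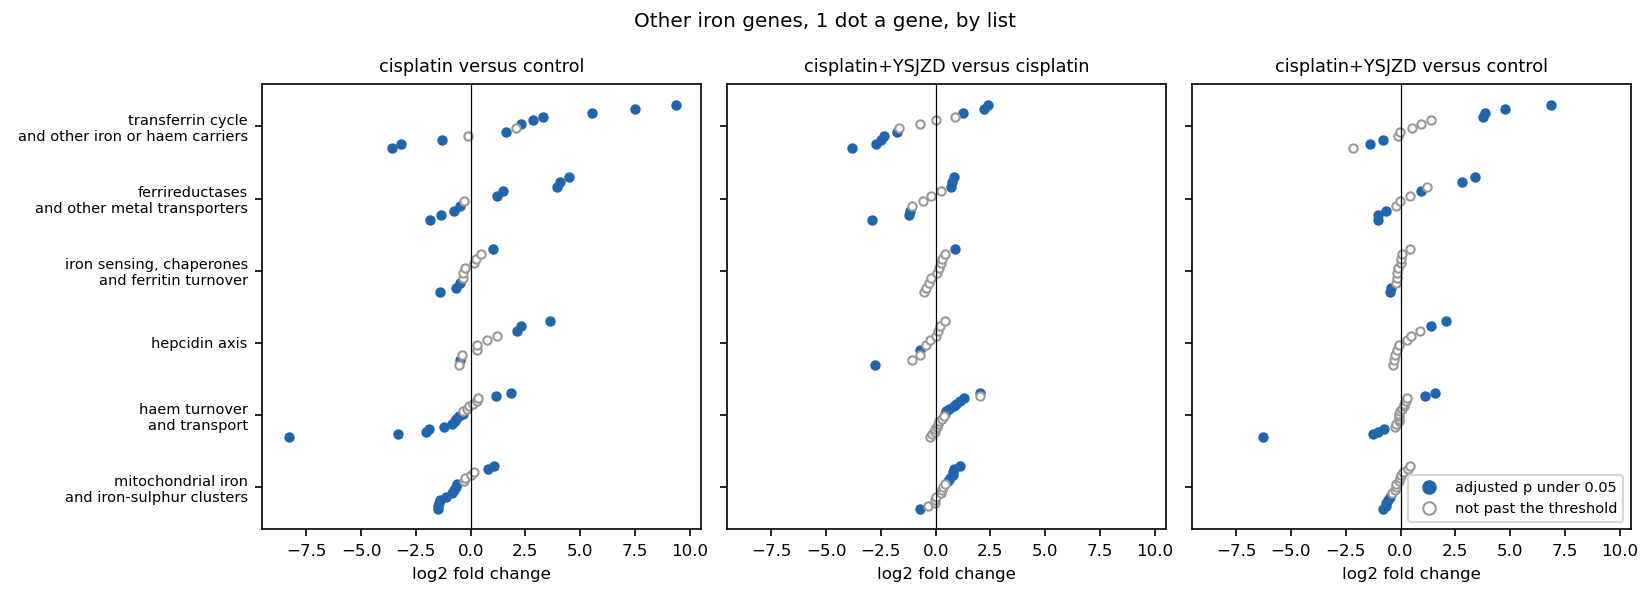
Log2 fold changes of 75 other iron genes in 6 lists, 1 dot a gene, for the 3 comparisons; filled dots passed at an edgeR adjusted p under 0.05. In cisplatin against control the carrier list holds the largest rise (Lcn2, 9.38). The haem and mitochondrial lists lie mostly below 0 there, with 10 of 18 and 9 of 15 called lower, against 26.0% of all tested genes. Nothing particular to a list is read from these counts.

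Genes most like each member were found among 9642 other genes averaging 10 CPM or more, by the root mean square difference between centred log2 CPM profiles over the 9 libraries. The difference is not scaled to a gene's spread, so members of wide range or low counts, such as Cp and Tfr2, tend to lie farther from other genes. The nearest to Tfrc were Agps (0.156) and Tmem64 (0.257), and to Slc11a2 Trap1 and Asb13 (0.127 each). The nearest to Fth1 were Plin3 (0.104) and Sdc4 (0.129), and to Ftl1 Fam207a (0.129) and Slc3a2 (0.151). Tfr2 lay farther from any gene, the nearest being Slc13a1 (0.409) and Gas6 (0.678), and Cp likewise, with Myc (0.529) and Clcf1 (0.541). For Ncoa4 they were Cpeb4 (0.143) and Zfp866 (0.152), for Slc40a1 Fubp1 (0.065) and Haus7 (0.076), for Heph Mertk (0.157) and Smim13 (0.22), and for Ireb2 Rap1a (0.093) and Akap11 (0.1).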

How the data were processed

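The deposited table has 58075 RefSeq transcripts, each tied to an Entrez gene. Its read count columns hold expected counts that the authors made with RSEM 1.3.1, per the submitters' processing notes, which also name DESeq2 1.4.5 and the human build GRCh38. No aligner or mouse build is named in the labels. The other deposited columns were taken to be FPKM: the transcript length implied by counts and values was, per library, 1.011 to 1.016 times the length less 200 bases. Each per-library column was matched to a sample, and the deposited columns of group averages were tied to a group and not used.

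Expected counts were summed per gene (17963 genes, 17847 with a RefSeq symbol) and rounded to whole numbers. All 9 libraries were fitted in edgeR 4.0.16 (R 4.3.3) with filterByExpr, TMM factors (0.855 to 1.105) and group as the only term. The filter removed 4009 genes. Intervals are at 95%, from the fit and before adjustment. Alternatives were DESeq2 1.42.0, limma-voom (limma 3.58.1), other scalings and filters, the 6 libraries compared alone, the replicate number as a block, and leaving out each library. Members, lists and the rule for named genes (all members, up to 4 other genes a list by smallest p and a fixed set) were chosen with earlier results of these data known. Counting error alone is small at these totals, except for genes such as Tfr2.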

Additional observations from a re-analysis of the deposited data

How the results depend on the processing

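Of 506 recomputed log2 fold changes of members, 470 kept their direction and their side of the threshold, 9 lost the call, 12 gained one and 15 changed sign; of 1420 for the other named genes these numbers were 1356, 46, 10 and 8. The calls of Tfrc, Slc11a2 and Tfr2 remained in every alternative in which they could be tested, except that the filter of at least 5 CPM in 3 libraries removed Tfr2. Most alternatives kept the main filter, which Tfr2 passed through the decoction libraries alone, so for Tfr2 this was in part fixed in advance. Leaving out each library in turn gave 6576 to 7979 genes called in cisplatin against control, 3496 to 4871 in cisplatin+YSJZD against cisplatin and 1607 to 3138 in cisplatin+YSJZD against control, where the lowest count came without control replicate 1 and the count was 1699 without control replicate 2, against 2694 with all libraries. Members called ranged from 4 to 6, 2 to 4 and 3 to 4.

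Signs turned only for values that had not passed. In cisplatin against control these were Tfr2 (0.18) and Slc40a1 (0.12) with library totals alone, Heph (0.00) with the replicate block, and, leaving out libraries, Tfr2 (-0.60 to 0.34), Slc40a1 (-0.18 to 0.00) and Heph (-0.22 to 0.25). In cisplatin+YSJZD against cisplatin they were Fth1 (-0.43 to 0.08), Ftl1 (-0.25 to 0.17), Ireb2 (-0.06 to 0.33) and Hmox1 (-0.48 to 0.07), and in cisplatin+YSJZD against control Ftl1 (-0.01 to 0.41), Erfe (-0.86 to 1.41, and -0.07 in limma-voom), Slc39a14 (-0.15 to 0.15, and 0.15 with library totals alone and 0.02 with the replicate block) and Fbxl5 (0.07 with library totals alone). With library totals alone the median of all genes moved to 0.27 in cisplatin against control and 0.20 in cisplatin+YSJZD against control, and the share of calls that were higher to 66.1% and 75.4%, against 52.4% and 51.4%. The replicate numbers did not pair the libraries (correlation of deviations -0.197 to 0.092 between libraries with the same number), and with the replicate block 7348, 4590 and 2367 genes and 5, 4 and 3 members were called, Ireb2 gaining the call in cisplatin against control (-0.49, edgeR adjusted p = 0.0444). The cause of these changes was not tested. Among the 10 members depth limits Tfr2 most, with 13 and 11 counts over the cisplatin and control groups.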
